A study of Mus musculus with 6 samples.

Results

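The genes of glycolysis, gluconeogenesis and glycogen metabolism were followed in mouse dHeps, damaged hepatocytes taken from livers injured by CCl4. The members were 45 genes chosen by symbol, of 52323 genes in the count table, and comprised 11 isoforms typical of liver, 16 isoforms that prevail in dedifferentiated or other cells, and 18 enzymes or regulators of shared steps. The row labelled Aldoa carried the identifier of an overlapping gene model, so 44 members were compared on counts, all of which passed the filter on low counts, and Aldoa was read from the FPKM table alone. A total of 19135 genes entered the tests.

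Every library came from cells of AAV-TBG-Cre:Rosa-LSL-tdTomato mice, in which Cre under the hepatocyte promoter TBG labels hepatocytes, kept for 16 days in serum-free Hepatocyte Maintenance Medium. The DMSO group received the solvent. The 3C group received CID755673 at 50 µM, which blocks protein kinase D, the ROCK inhibitor GSK429286A at 2 µM and ETC-1002 (bempedoic acid) at 5 µM. The 5C group received the same compounds at the same doses, together with salidroside at 5 µM, a glycoside of Rhodiola, and forskolin at 2 µM, which turns on adenylate cyclase, so the effects of these additions cannot be told apart. Each group held 2 libraries of bulk RNA-seq. The methods of the study describe replicates as separate biological ones, but the labels tie no library to an animal or culture, so p-values measure the spread between these libraries. Uninjured hepatocytes were not analysed here.

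Glycolysis splits glucose into pyruvate, and gluconeogenesis runs the reverse course in the fasted liver, bypassing the irreversible steps with dedicated enzymes. The enzymes of the bypass are pyruvate carboxylase, PEPCK, fructose bisphosphatase and glucose-6-phosphatase, and glucagon raises several of them through cAMP. Many steps have a liver isoform and another isoform found in muscle, brain, blood or proliferating cells, and hepatocytes that lose their identity in culture typically lose the former.

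Levels are counts scaled to the library total (CPM), changes are log2 fold changes ± SE, and p-values were adjusted over all genes tested in the quasi-likelihood test of edgeR. A gene that rose, fell or changed had an adjusted p under 0.05, and a called gene also differed by over 2-fold. Library totals ran from 65916573 to 69245895 estimated counts. Markers of several cell types were present in all groups. Summed over 13 hepatocyte markers, the level was 3537 and 3255 CPM in DMSO, 14235 and 14868 in 3C and 13829 and 19127 in 5C, and 12 of the 13 rose in each cocktail against DMSO while the urea cycle enzyme Arg1 fell in both. Summed over 20 macrophage markers, the level was 14609 and 15699 CPM in DMSO, 5271 and 5282 in 3C and 3555 and 3494 in 5C, with 16 of 20 lower in each cocktail and Cd14 and Cd74 higher. The macrophage lysozyme Lyz2 was at 6024 and 6137 CPM in DMSO, 1821 and 1789 in 3C and 1099 and 1113 in 5C. The 12 genes of stellate cells and fibroblasts summed to 9073 and 7758 CPM in DMSO, 7082 and 7184 in 3C and 11557 and 12576 in 5C. Of these 12, 7 rose and 1 fell in 5C, and 7 rose and 3 fell in 3C, so the lower sum in 3C does not describe most of them. Of 8 cholangiocyte markers, 6 rose in each cocktail and 1 fell in 5C. Of 9 tested endothelial markers, 4 rose and 2 fell in 5C, and 2 rose and 2 fell in 3C. The plot of marker lists by library shows that the hepatocyte and macrophage sums moved in opposite directions. In bulk samples, fewer cells of a type and less RNA per cell cannot be told apart, and the part of these shifts in the results below was not tested.

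**Figure D1:**
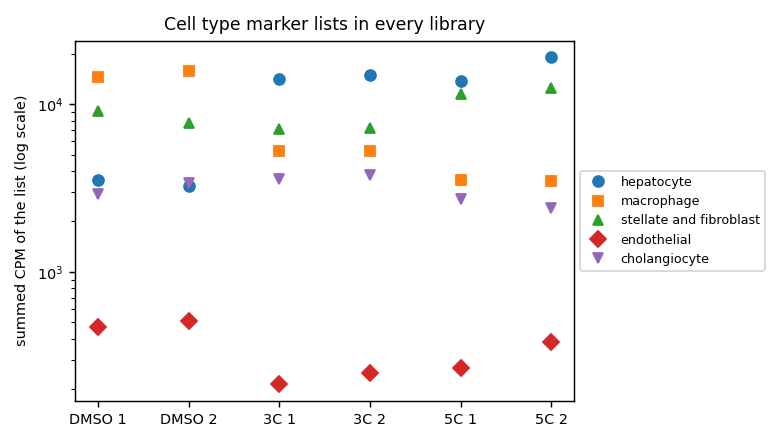
Summed CPM (log scale) of 5 lists of cell type markers in each of the 6 libraries. The hepatocyte sum lies between 3255 and 3537 CPM in DMSO and at or above 13829 CPM in all cocktail libraries, whereas the macrophage sum is highest in DMSO and lowest in 5C.

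Against DMSO, genes of glucose production were among the largest rises, most liver isoforms rose in each cocktail, and the isoforms of other cells were split. In 5C, 26 of 44 members rose (59.1%, beside 15.6% of all genes tested) and 8 fell (18.2%, beside 13.1%). Of these, 13 were called higher (29.5%, beside 7.3%) and 1 was called lower (2.27%, beside 4.42%). In 3C, 26 of 44 rose (59.1%, beside 12.7%) and 7 fell (15.9%, beside 11.8%), with 11 called higher (25%, beside 5.83%) and 0 called lower (beside 3.62%). DESeq2 also called 11 higher and 0 lower in 3C. At an unadjusted p under 0.05 in edgeR, 12 were over 2-fold higher and 0 over 2-fold lower. Both comparisons use the same DMSO libraries. Among the 11 liver isoforms, 9 rose in 5C and the other 2 did not pass, with a median log2 fold change of 1.76, and 9 rose in 3C, with a median of 2.32. Gys2, which entered the test through the cocktail libraries alone, is among the 9 in 5C, and without it 8 of 10 rose in 5C (median 1.59) and 9 of 10 in 3C (median 1.73), while 25 of all 43 other members rose in 5C and 12 were called higher. On the log2(FPKM + 1) scale the medians of the liver isoforms were 1.47 in 5C and 1.01 in 3C, so the order of the cocktails turned. Among the 15 tested isoforms of other cells, 4 rose and 7 fell in 5C (median -0.07), and 3 rose and 6 fell in 3C (median -0.12). The median of all genes tested was 0.00413 in 5C and 0.00876 in 3C. The number that fell in 5C was 5 without DMSO replicate 1, 5 without 5C replicate 1 and 4 without 5C replicate 2, and in 3C it was 4 without 3C replicate 2, while 1 was called lower in 3C without DMSO replicate 1. Of the 18 shared enzymes and regulators, 13 rose and 1 fell in 5C, and 14 rose and 1 fell in 3C.

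**Figure D2:**
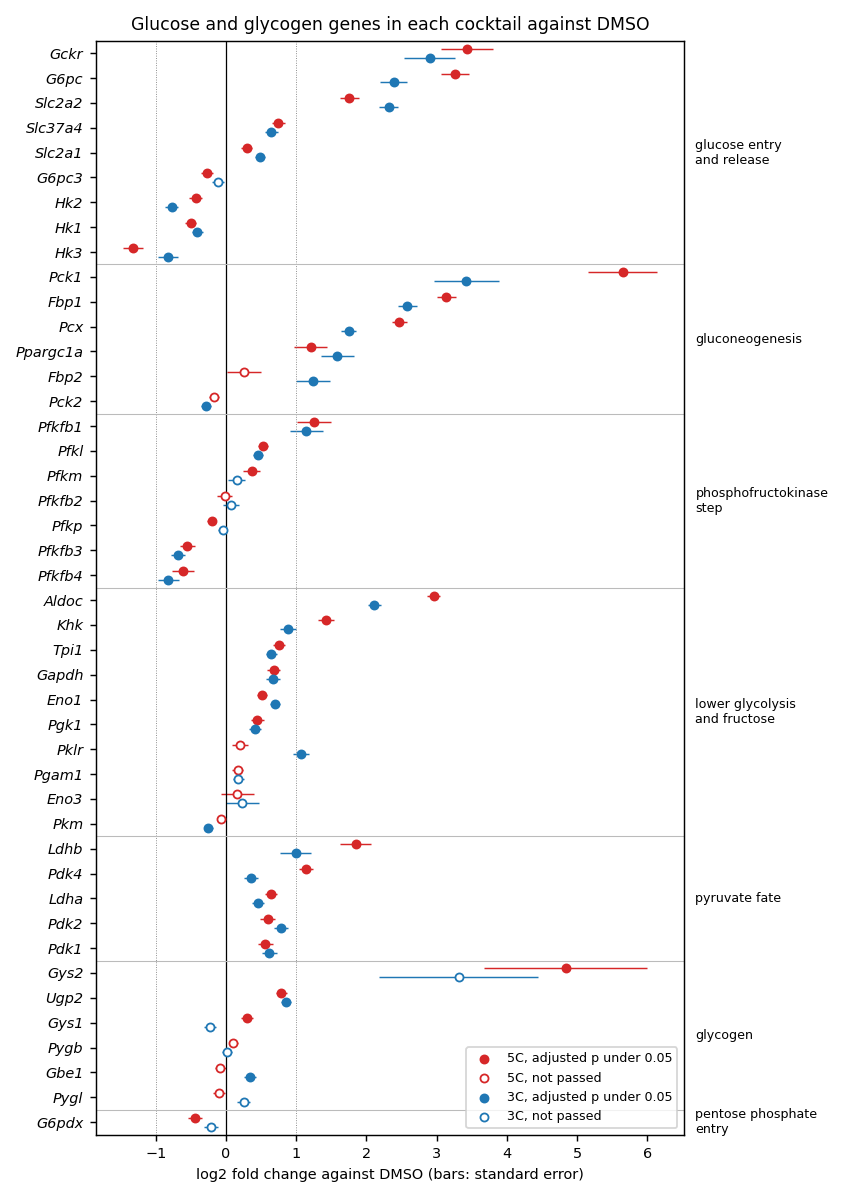
Log2 fold change against DMSO of the 44 members tested on counts, by role, for 5C (red) and 3C (blue); bars are standard errors, filled points passed an adjusted p of 0.05, and dotted lines mark 2-fold. Pck1 lies farthest to the right at 5.65 in 5C and 3.42 in 3C, and Hk3 farthest to the left at -1.33 in 5C.

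Of the 6 gluconeogenic members, 4 rose in 5C (66.7%, beside 7.3% of all genes called higher) and 5 rose in 3C (83.3%, beside 5.83%). All of these rises were over 2-fold, and Pck2 fell in 3C. Pck1 encodes the cytosolic PEPCK, which turns oxaloacetate into phosphoenolpyruvate (chr2:172994744-173001066, plus strand, GRCm39). Its level was 3.35 and 1.43 CPM in DMSO, 24.4 and 27.9 in 3C and 92.9 and 143 in 5C. The 3 groups did not overlap, and the 5C libraries differed more from each other than those of 3C. Pck1 rose by 5.65 ± 0.49 (adjusted p = 0.00184) in 5C and by 3.42 ± 0.46 (adjusted p = 0.0089) in 3C. The rise in 3C had an adjusted p of 0.0734 without 3C replicate 1 and of 0.0782 without 3C replicate 2, each of which left 3C with 1 library. Pck2, the mitochondrial form of the enzyme, was at 289 and 280.2 CPM in DMSO, 240.1 and 237 in 3C and 263 and 236 in 5C. It differed by -0.17 ± 0.07 (adjusted p = 0.102) in 5C and fell by 0.29 on the log2 scale in 3C (adjusted p = 0.0152), a fall that did not pass without either 3C library (0.112 and 0.131). Per length, Pck1 made up 1.19 and 0.538% in DMSO, 10.2 and 11.5% in 3C and 27.9 and 39.8% in 5C of the FPKM of both genes, so Pck2 remained the more abundant form in every library.

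Pcx, pyruvate carboxylase, feeds pyruvate into the pathway (chr19:4559902-4672189, plus strand). It was at 28.9 and 24.2 CPM in DMSO, 87.7 and 94.4 in 3C and 135 and 155 in 5C, without overlap between groups. The rise was 2.47 ± 0.11 (adjusted p = 8.09e-07) in 5C and 1.75 ± 0.11 (adjusted p = 7.67e-06) in 3C. Fbp1, the liver fructose bisphosphatase (chr13:63012567-63036263, minus strand), was at 6.46 and 6.48 CPM in DMSO, 38.3 and 40.8 in 3C and 49.6 and 62.6 in 5C. It was low and even in DMSO, and rose by 3.14 ± 0.14 (adjusted p = 7.59e-07) in 5C and by 2.58 ± 0.13 (adjusted p = 3.5e-06) in 3C. Fbp2, the muscle form, was at 2.35 and 1.93 CPM in DMSO, 4.97 and 5.31 in 3C and 2.48 and 2.56 in 5C. The 3C libraries were the highest, with a rise of 1.23 ± 0.24 (adjusted p = 0.00526) in 3C beside a difference of 0.25 ± 0.24 (adjusted p = 0.5) in 5C. Fbp1 supplied 71.5 and 75.5% in DMSO, 87.6 and 87.6% in 3C and 94.8 and 95.7% in 5C of the FPKM of the pair. Ppargc1a, a coactivator of gluconeogenic transcription, was at 2.89 and 2.02 CPM in DMSO, 7.55 and 7.50 in 3C and 5.07 and 6.07 in 5C. The groups did not overlap, and it rose by 1.20 ± 0.23 (adjusted p = 0.0044) in 5C and by 1.59 ± 0.24 (adjusted p = 0.00112) in 3C.

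Of the 9 members of glucose entry and release, 5 rose (55.6%, beside 15.6% of all genes) and 4 fell (44.4%, beside 13.1%) in 5C. In 3C, 5 rose (55.6%, beside 12.7%) and 3 fell (33.3%, beside 11.8%). G6pc encodes the catalytic subunit of glucose-6-phosphatase, which frees glucose at the end of gluconeogenesis (chr11:101258369-101268729, plus strand; the annotation names it G6pc1). Its level was 2.43 and 2.00 CPM in DMSO, 12.6 and 11.2 in 3C and 18.0 and 23.9 in 5C, with every 5C library above every 3C library and both above DMSO. The rise was 3.26 ± 0.20 (adjusted p = 4.19e-06) in 5C and 2.39 ± 0.19 (adjusted p = 3.07e-05) in 3C. G6pc3, the form found in most tissues, was at 44.4 and 48.3 CPM in DMSO, 44.0 and 43.4 in 3C and 38.2 and 37.3 in 5C. It fell by 0.28 on the log2 scale in 5C (adjusted p = 0.0377) and differed by -0.12 ± 0.08 (adjusted p = 0.388) in 3C. That fall did not pass without any of DMSO replicate 2, either 3C library or either 5C library (adjusted p = 0.0786 to 0.158). G6pc3 shares 64.6% of the 50-base stretches (words) of its transcript with Hdac5, a histone deacetylase gene at 102 to 122 CPM, so its level and the share of G6pc are uncertain. G6pc accounted for 3.37 and 2.60% in DMSO, 15.3 and 14.2% in 3C and 23.3 and 29.2% in 5C of the FPKM of the pair. Slc37a4, which carries glucose-6-phosphate to the phosphatase, was at 26.6 and 25.7 CPM in DMSO, 42.1 and 41.5 in 3C and 40.7 and 45.6 in 5C and rose by 0.74 ± 0.09 (adjusted p = 0.000338) in 5C and by 0.64 ± 0.09 (adjusted p = 0.000973) in 3C. It shares 73.0% of its words with its antisense neighbour Trappc4, which was at 34.2 to 48.7 CPM. Reads of the shared stretches cannot be told apart, since the library kit does not mark strand.

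Gckr, the glucokinase regulatory protein, was low in DMSO (chr5:31454787-31484658, plus strand). It was at 1.92 and 0.789 CPM in DMSO, 11.4 and 9.29 in 3C and 13.6 and 15.1 in 5C, and both cocktails stood clear of DMSO. The rise was 3.43 ± 0.37 (adjusted p = 0.000307) in 5C and 2.90 ± 0.36 (adjusted p = 0.000846) in 3C. Slc2a2, the glucose transporter GLUT2 of hepatocytes (chr3:28752051-28785508, plus strand), was at 22.0 and 22.2 CPM in DMSO, 106 and 119 in 3C and 64.2 and 83.1 in 5C. It was highest in 3C and rose by 1.76 ± 0.13 (adjusted p = 2.12e-05) in 5C and by 2.32 ± 0.13 (adjusted p = 8.18e-06) in 3C. Slc2a1, the widespread transporter GLUT1, was at 75.4 and 82.7 CPM in DMSO, 111 and 115 in 3C and 93.8 and 97.3 in 5C. It rose by 0.29 ± 0.08 (adjusted p = 0.0186) in 5C, which did not pass without DMSO replicate 1 (adjusted p = 0.0911) or 5C replicate 2 (0.107), and by 0.48 ± 0.08 (adjusted p = 0.00154) in 3C. Slc2a2 took 15.0 and 14.0% in DMSO, 36.1 and 37.3% in 3C and 29.5 and 33.4% in 5C of the FPKM of the 2 transporters.

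The members Hk1, Hk2 and Hk3, hexokinases of other cells, all fell in both cocktails, whereas Hkdc1, a related gene outside the members, rose in both. Hk3, a hexokinase of myeloid cells, was at 43.6 and 55.9 CPM in DMSO, 28.3 and 29.2 in 3C and 21.6 and 17.6 in 5C, falling from DMSO through 3C to 5C without overlap. Its log2 fold change was -1.33 ± 0.14 (adjusted p = 0.000125) in 5C and -0.82 ± 0.14 (adjusted p = 0.00242) in 3C. Hk1, the broadly expressed form, was at 79.5 and 87.4 CPM in DMSO, 65.8 and 62.4 in 3C and 58.1 and 58.4 in 5C, with log2 fold changes of -0.50 ± 0.08 (adjusted p = 0.00127) in 5C and -0.41 ± 0.08 (adjusted p = 0.00442) in 3C (adjusted p = 0.0576 without 3C replicate 2). Hk2, the insulin-responsive form of muscle and fat, was at 56.4 and 50.3 CPM in DMSO, 30.4 and 33.2 in 3C and 38.6 and 39.5 in 5C and lowest in 3C. Its log2 fold changes were -0.43 ± 0.09 (adjusted p = 0.00696) in 5C and -0.78 ± 0.09 (adjusted p = 0.000284) in 3C. The macrophage sums given above fell in the same order of groups as Hk3, and their part in these falls was not tested.

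**Figure D3:**
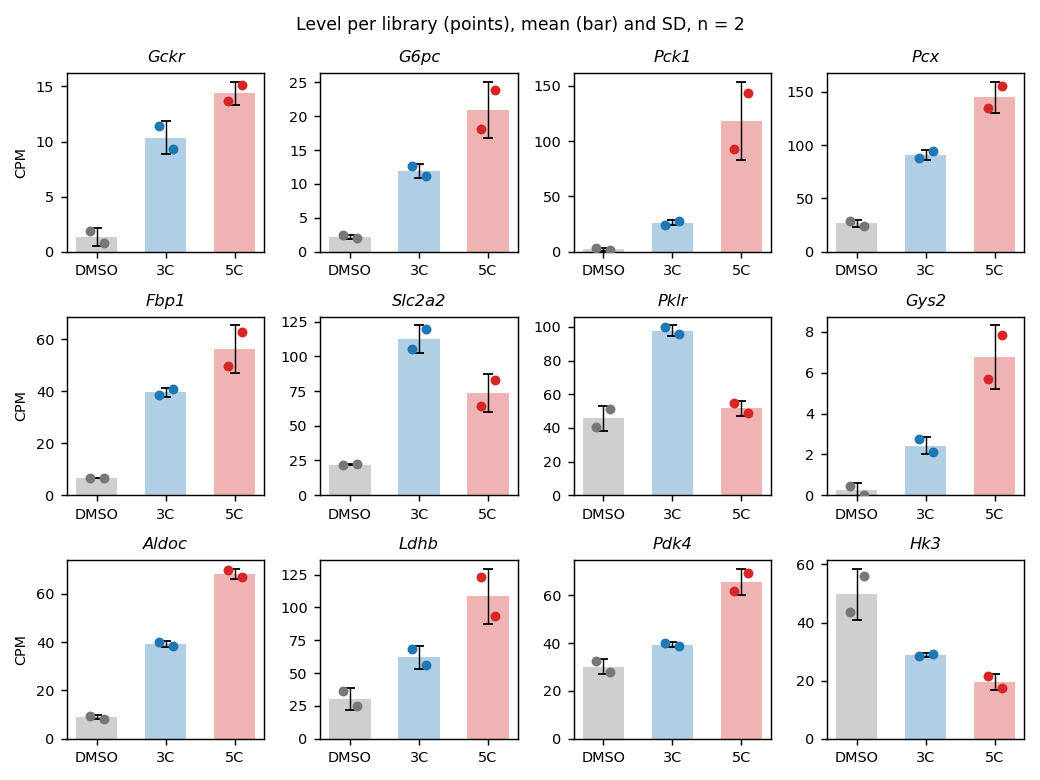
Level (CPM, each axis from 0) of 12 members in each library; points are libraries, bars means and whiskers the SD of 2 libraries. Gckr, G6pc, Pck1, Pcx, Fbp1, Gys2, Aldoc, Ldhb and Pdk4 are highest in 5C, Slc2a2 and Pklr in 3C, and Hk3 in DMSO.

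At the phosphofructokinase step the shifts were small apart from Pfkfb1, the liver form of the bifunctional enzyme that makes and removes fructose 2,6-bisphosphate. Pfkfb1 was at 1.89 and 2.35 CPM in DMSO, 5.24 and 4.37 in 3C and 4.73 and 5.23 in 5C and rose by 1.25 ± 0.24 (adjusted p = 0.00416) in 5C and by 1.15 ± 0.24 (adjusted p = 0.00753) in 3C, where the adjusted p was 0.0669 without 3C replicate 1. Pfkfb3, the inducible form with high kinase activity, was at 60.4 and 48.2 CPM in DMSO, 35.0 and 34.1 in 3C and 36.9 and 36.2 in 5C, above both cocktails in each DMSO library. Its log2 fold changes were -0.55 ± 0.11 (adjusted p = 0.00401) in 5C and -0.68 ± 0.11 (adjusted p = 0.00143) in 3C. Pfkfb4 fell likewise, with log2 fold changes of -0.61 ± 0.15 (adjusted p = 0.0161) in 5C and -0.82 ± 0.15 (adjusted p = 0.00422) in 3C, though the fall in 5C did not pass without DMSO replicate 1, 5C replicate 1 or 5C replicate 2 (0.0639 to 0.0874). By contrast, Pfkfb2 differed by -0.02 and 0.07 and did not pass (adjusted p = 0.924 and 0.714). Pfkfb1 made up 4.45 and 6.28% in DMSO, 16.3 and 15.3% in 3C and 13.9 and 14.6% in 5C of the FPKM of the 4 genes.

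Among the phosphofructokinases themselves, Pfkl, the liver form, was at 112 and 108 CPM in DMSO, 147 and 161 in 3C and 153 and 159 in 5C and rose by 0.52 ± 0.07 (adjusted p = 0.00059) in 5C and by 0.46 ± 0.07 (adjusted p = 0.00159) in 3C. It shares 60.1% of its words with other genes, mostly Cfap410, which was at 13.0 to 18.6 CPM. Pfkm, the muscle form, was at 26.4 and 22.0 CPM in DMSO, 25.7 and 29.1 in 3C and 32.1 and 29.4 in 5C, and Pfkp, the platelet form, at 81.2 and 77.1 CPM in DMSO, 77.2 and 79.2 in 3C and 68.3 and 67.2 in 5C. Their ranges were narrow. In 5C Pfkm rose by 0.36 ± 0.12 (adjusted p = 0.0445) and the log2 fold change of Pfkp was -0.21 ± 0.07 (adjusted p = 0.0427), and in 3C neither passed (adjusted p = 0.422 and 0.659). In 5C, Pfkm passed in no fit that left out a library but the one without DMSO replicate 1 (adjusted p = 0.0636 to 0.186 in the others), and Pfkp in none of the 6 (0.0637 to 0.146). Pfkl made up 51.4 and 52.4% in DMSO, 58.9 and 60.4% in 3C and 59.9 and 62.1% in 5C of the FPKM of the 3 genes.

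In lower glycolysis, Aldoc went against the division by isoform. It encodes the aldolase known from brain, was placed among the isoforms of other cells, and was at 9.43 and 8.37 CPM in DMSO, 40.1 and 38.3 in 3C and 69.7 and 66.8 in 5C (chr11:78213619-78218889, plus strand). The groups did not overlap and replicates were close. Aldoc rose by 2.96 ± 0.10 (adjusted p = 2.16e-07) in 5C and by 2.11 ± 0.09 (adjusted p = 1.76e-06) in 3C, or 7.77-fold and 4.31-fold. Aldoa, the aldolase of muscle and most cells, was at 409.6 and 436 FPKM in DMSO, 445 and 509.8 in 3C and 484 and 470.0 in 5C in the FPKM table and differed by 0.17 ± 0.09 in 5C (limma, adjusted p = 0.202) and 0.17 ± 0.09 in 3C (adjusted p = 0.229) on the log2(FPKM + 1) scale. Beside it, Aldoc was at 3.39 and 2.99 FPKM in DMSO, 13.3 and 13.3 in 3C and 23.6 and 24.3 in 5C. Aldoa therefore stayed the more abundant of these 2 aldolases per length in all 6 libraries. Khk, ketohexokinase, starts fructose metabolism and was at 14.2 and 14.1 CPM in DMSO, 28.4 and 24.9 in 3C and 40.6 and 34.6 in 5C. It rose by 1.43 ± 0.11 (adjusted p = 2.06e-05) in 5C and by 0.88 ± 0.11 (adjusted p = 0.000462) in 3C.

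The pyruvate kinases separated the cocktails. Pklr, the liver and red cell form (chr3:89043449-89054619, plus strand), was at 40.3 and 51.0 CPM in DMSO, 100.04 and 95.6 in 3C and 54.8 and 48.6 in 5C. The 3C libraries lay well above the rest, while the 5C and DMSO libraries overlapped. Pklr rose by 1.06 ± 0.12 (adjusted p = 0.000185) in 3C and differed by 0.19 ± 0.12 (adjusted p = 0.264) in 5C. It shares 34.4% of its words with the antisense neighbour Hcn3, whose level was 0.737 to 3.11 CPM. Pkm, the form of muscle and proliferating cells, was at 694 and 689 CPM in DMSO, 605 and 579 in 3C and 653 and 648 in 5C. It differed by -0.07 ± 0.06 (adjusted p = 0.486) in 5C, and its log2 fold change of -0.26 ± 0.06 (adjusted p = 0.0185) in 3C did not pass without either 3C library (0.104 and 0.194). Pklr provided 4.63 and 5.96% in DMSO, 12.1 and 12.2% in 3C and 6.49 and 5.83% in 5C of the FPKM of both genes, so Pkm prevailed everywhere.

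Of the enzymes shared by both directions of the pathway, Tpi1, Gapdh, Pgk1 and Eno1 rose in both cocktails, by 0.41 to 0.75 on the log2 scale, and Pgk1 did not pass in 3C without 3C replicate 2 (adjusted p = 0.0934). Eno1, the widespread enolase, was at 752 and 797 CPM in DMSO, 1239 and 1336 in 3C and 1101 and 1083 in 5C, whereas Eno3, the muscle form, was at 8.43 and 5.14 CPM in DMSO, 8.36 and 7.90 in 3C and 8.31 and 6.64 in 5C with overlap between groups. Eno1 rose by 0.51 ± 0.07 (adjusted p = 0.000754) in 5C and by 0.70 ± 0.07 (adjusted p = 0.000147) in 3C, and Eno3 passed in neither (adjusted p = 0.685 and 0.563). Eno3 made up 1.56 and 0.895% in DMSO, 0.961 and 0.837% in 3C and 1.06 and 0.860% in 5C of the FPKM of both enolases. Pgam1 passed in neither comparison. Gapdh was counted at 19.5 to 34.1 CPM, below the sum of 3 rows named as its pseudogenes (41.2 to 74.6 CPM), so its level is uncertain. In the FPKM table it was at 6.09 and 5.73 FPKM in DMSO, 17.8 and 15.1 in 3C and 28.8 and 19.1 in 5C, a larger change than on counts, at 1.82 in 5C and 1.33 in 3C on the log2(FPKM + 1) scale (limma, adjusted p = 2e-04 and 0.00139) beside 0.68 and 0.67 on counts. In all, 20 of the 45 members shared at least 10% of their words with other genes, while Pck1, G6pc, Fbp1, Gckr, Gys2 and Slc2a2 shared 0.

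The 5 members placed at the fate of pyruvate, Ldha, Ldhb, Pdk1, Pdk2 and Pdk4, all rose in both cocktails. Of all genes tested, 15.6% rose in 5C and 12.7% in 3C. Ldhb, the heart-type lactate dehydrogenase subunit, was at 36.5 and 24.7 CPM in DMSO, 68.4 and 55.9 in 3C and 123 and 93.7 in 5C, and all cocktail libraries lay above DMSO. It rose by 1.85 ± 0.22 (adjusted p = 0.00185) in 5C and by 0.99 ± 0.22 (adjusted p = 0.0231) in 3C, where the adjusted p was 0.11 without 3C replicate 1. Ldha, the muscle-type subunit, was at 387 and 417 CPM in DMSO, 536 and 590.5 in 3C and 593 and 641 in 5C and rose by 0.64 ± 0.09 (adjusted p = 0.000498) in 5C and by 0.45 ± 0.09 (adjusted p = 0.00423) in 3C, where the adjusted p was 0.0574 without 3C replicate 2. Ldhb made up 10.4 and 6.85% in DMSO, 13.7 and 10.6% in 3C and 20.6 and 15.3% in 5C of the FPKM of both subunits. Pdk4, the pyruvate dehydrogenase kinase induced by fasting, was at 32.3 and 27.9 CPM in DMSO, 40.0 and 38.7 in 3C and 61.7 and 69.4 in 5C, without overlap. It rose by 1.14 ± 0.10 (adjusted p = 3.94e-05) in 5C and by 0.36 ± 0.10 (adjusted p = 0.0305) in 3C, a rise with an adjusted p of 0.106 to 0.153 without DMSO replicate 2, 3C replicate 1 or 3C replicate 2. Pdk1 and Pdk2, kinases of the same complex, rose by 0.56 to 0.78 on the log2 scale.

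In glycogen metabolism the liver synthase was near 0 in DMSO and present in every cocktail library, and neither Pygl nor Pygb passed against DMSO. Gys2, the liver glycogen synthase, was at 0.476 and 0 CPM in DMSO, 2.73 and 2.14 in 3C and 5.68 and 7.87 in 5C (chr6:142368339-142418841, minus strand), and reached the filter through the cocktail libraries alone. Its DMSO libraries were at or near 0, so the fitted change depends on the model. That change was 4.84 ± 1.16 (adjusted p = 0.0361) in 5C and 3.31 ± 1.13 (adjusted p = 0.108) in 3C. The p in 5C is given as a description, since the filter favours such a gene, and it did not pass with all genes of at least 1 count (adjusted p = 0.0914), in the 4 libraries compared (0.0861), with a replicate block (0.0628) or without either 3C or either 5C library (0.115 to 0.139). Gys1, the muscle form, was at 44.5 and 44.3 CPM in DMSO, 37.8 and 39.8 in 3C and 51.5 and 55.9 in 5C, with a rise of 0.29 ± 0.08 (adjusted p = 0.0291) in 5C and a difference of -0.23 ± 0.08 (adjusted p = 0.0892) in 3C. The rise of Gys1 had adjusted p-values of 0.0521 to 0.178 in fits without DMSO replicate 1, DMSO replicate 2, 3C replicate 1, 3C replicate 2 or 5C replicate 2. Gys2 accounted for 1.42 and 0% in DMSO, 8.94 and 6.85% in 3C and 13.0 and 16.1% in 5C of the FPKM of both synthases.

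Pygl, the liver glycogen phosphorylase, was at 74.8 and 64.1 CPM in DMSO, 82.9 and 85.8 in 3C and 61.0 and 66.6 in 5C, and Pygb, the brain form, at 84.3 and 80.1 CPM in DMSO, 86.0 and 84.0 in 3C and 91.6 and 83.1 in 5C. Their groups lay close together. Neither passed against DMSO, with Pygl at -0.10 ± 0.09 (adjusted p = 0.454) in 5C and 0.25 ± 0.09 (adjusted p = 0.0754) in 3C and Pygb at 0.11 ± 0.07 (adjusted p = 0.311) and 0.02 ± 0.07 (adjusted p = 0.909). Pygl took 55.1 and 52.7% in DMSO, 57.1 and 58.7% in 3C and 48.1 and 52.6% in 5C of the FPKM of the pair. Ugp2, which makes the UDP-glucose used for glycogen, rose by 0.78 ± 0.08 (adjusted p = 7.78e-05) in 5C and by 0.85 ± 0.08 (adjusted p = 6.23e-05) in 3C. Gbe1, the branching enzyme, rose in 3C by 0.34 ± 0.08 (adjusted p = 0.0154) and differed by -0.08 ± 0.08 (adjusted p = 0.546) in 5C. The rise had an adjusted p of 0.0836 without DMSO replicate 1 and 0.147 without 3C replicate 1. G6pdx, which opens the pentose phosphate pathway, had log2 fold changes of -0.44 ± 0.10 (adjusted p = 0.0104) in 5C, which did not pass without DMSO replicate 1 (0.0506) or 5C replicate 2 (0.0717), and -0.22 ± 0.10 (adjusted p = 0.162) in 3C.

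**Figure D4:**
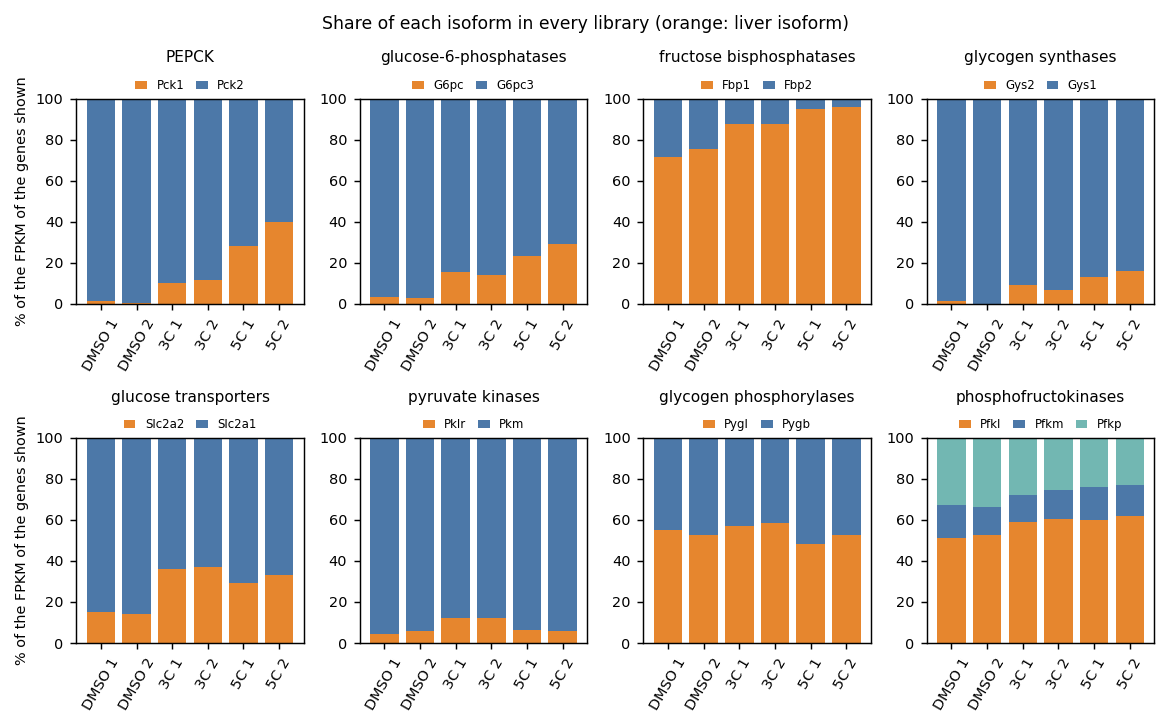
Share (%) of each isoform in the summed FPKM of the genes shown, in each library, for 8 steps; orange marks the liver isoform. The liver share of PEPCK, glucose-6-phosphatase, fructose bisphosphatase and glycogen synthase is lowest in DMSO and highest in 5C, that of pyruvate kinase is highest in 3C, and that of glycogen phosphorylase lies between 48.1 and 58.7%.

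The comparison of 5C with 3C shows what differed when salidroside and forskolin were added. Of the 6 gluconeogenic members, Pck1, Pcx and Fbp1 were higher in 5C, Fbp2 was lower, and Pck2 and Ppargc1a did not pass. Of the genes of glucose entry and release, G6pc and Hk2 were higher in 5C, and Slc2a2 and Hk3 were lower. Of the pyruvate kinases, Pklr was lower in 5C and Pkm did not pass. Of 44 members, 9 were higher in 5C (20.5%, beside 7.33% of all genes) and 6 were lower (13.6%, beside 5.33%), and 1 was called higher (2.27%, beside 2.16%) and 0 lower (beside 0.852%), so the share called was near the background. DESeq2 also called 1 higher and 0 lower, as did edgeR at an unadjusted p under 0.05. The median was 0.53 for the liver isoforms and 0.09 for the isoforms of other cells, beside -0.011 for all genes. The called gene was Pck1, with a log2 fold change of 2.23 ± 0.40 (adjusted p = 0.0372), or 4.68-fold. Its difference lay between 1.86 and 2.51 without 3C replicate 1, 3C replicate 2, 5C replicate 1 or 5C replicate 2, and did not pass in any of these fits (adjusted p = 0.058 to 0.291). Without either DMSO library, 2 members were called higher. The number higher in 5C was 4 without either 3C library and 5 without 5C replicate 2, and the number lower was 1, 2, 2 and 3 without 3C replicate 1, 3C replicate 2, 5C replicate 1 and 5C replicate 2.

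Pcx, G6pc and Fbp1 differed less between the cocktails. Pcx was 1.65-fold higher in 5C, at 0.72 ± 0.10 (adjusted p = 0.00254), G6pc 1.83-fold, at 0.87 ± 0.18 (adjusted p = 0.0121), and Fbp1 1.47-fold, at 0.56 ± 0.12 (adjusted p = 0.0179). Without 5C replicate 2, the values were 0.63 for G6pc (adjusted p = 0.114) and 0.36 for Fbp1 (0.128), and neither gene passed without 3C replicate 1 (0.0604 and 0.139) or 3C replicate 2 (0.108 and 0.0839). Among other steps, Aldoc was higher in 5C by 0.85 ± 0.09 (adjusted p = 0.000606), Pdk4 by 0.79 ± 0.10 (adjusted p = 0.00159), Khk by 0.55 ± 0.11 (adjusted p = 0.0127), Gys1 by 0.52 ± 0.08 (adjusted p = 0.00461) and Hk2 by 0.35 ± 0.09 (adjusted p = 0.0393). Khk did not pass without 3C replicate 2 (0.127) or 5C replicate 1 (0.0888), nor Gys1 without 3C replicate 1 (0.0522), nor Hk2 without any of the 4 cocktail libraries (0.1 to 0.278). Aldoc, Pcx and Pdk4 passed in every fit that left out a library.

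Lower in 5C than in 3C were Pklr, at -0.87 ± 0.12 (adjusted p = 0.00199), Fbp2, at -0.98 ± 0.24 (adjusted p = 0.0285), Slc2a2, at -0.56 ± 0.13 (adjusted p = 0.0223), Hk3, at -0.50 ± 0.14 (adjusted p = 0.0488), Gbe1, at -0.42 ± 0.08 (adjusted p = 0.0109), and Pygl, at -0.35 ± 0.09 (adjusted p = 0.0327). Pklr passed in every fit that left out a library. Fbp2 and Hk3 did not pass without any of the 4 cocktail libraries (adjusted p = 0.116 to 0.173 for Fbp2 and 0.0604 to 0.258 for Hk3), nor did Slc2a2 and Pygl without 3C replicate 1, 3C replicate 2 or 5C replicate 1 (0.0511 to 0.15 for Slc2a2 and 0.139 to 0.206 for Pygl). Gbe1 did not pass without 3C replicate 1 (0.119) or 5C replicate 2 (0.0686). Gckr, at 0.53 ± 0.32 (adjusted p = 0.389), Ldhb, at 0.85 ± 0.22 (adjusted p = 0.0611), Ppargc1a, at -0.38 ± 0.23 (adjusted p = 0.363), and Gys2, at 1.53 ± 0.95 (adjusted p = 0.433), did not pass. None of the 7 genes of the phosphofructokinase step passed.

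**Figure D5:**
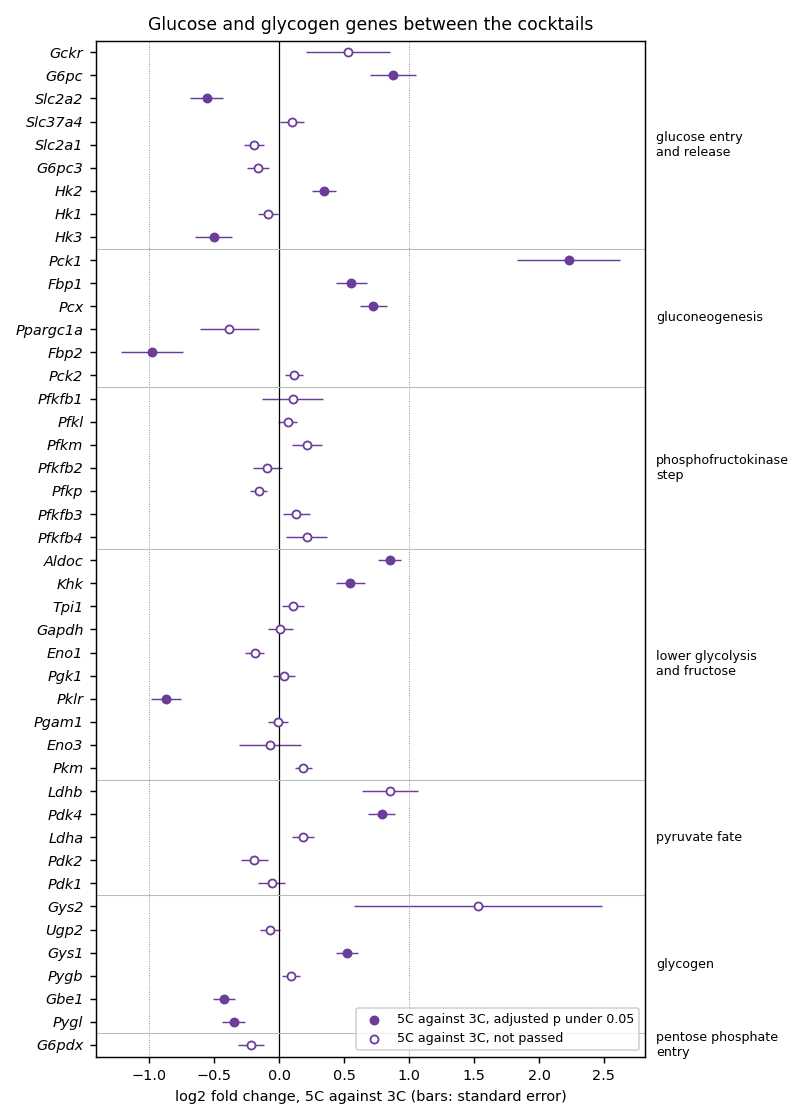
Log2 fold change of 5C against 3C for the 44 members tested on counts, by role, with standard errors; filled points passed an adjusted p of 0.05 and dotted lines mark 2-fold. Pck1 stands alone beyond 2-fold among the filled points at 2.23, and Fbp2 and Pklr are the lowest at -0.98 and -0.87.

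Since forskolin raises cAMP and Pck1 is a textbook cAMP target, the 250 bases before the start of the canonical GENCODE transcript of each member were searched on both strands for the core of the cAMP response element (CRE), TGACG, and the full CRE, TGACGTCA, which contains it. The core stood in 8 of 45 member promoters and in 18.03% of 21770 promoters, and the full CRE in 2 members, Ldha and Ppargc1a, and in 1.695% of promoters. For the CRE core, the share of members was thus near that of all promoters. The 8 were Hk2, Pck1, Ldha, Pdk2, Pdk4, Ppargc1a, Pygb and G6pdx. Of these, Pck1, Pdk4 and Hk2 were higher in 5C than in 3C, and the others did not pass, including both members with the full CRE. Pcx, G6pc, Fbp1, Aldoc, Khk and Gys1 were also higher in 5C and lack the core. A part of the core in these differences was not tested. Promoters of 4 members that differed between the cocktails, picked by hand with a core that each holds, are shown from the GRCm39 genome. They run 5′ to 3′ and end just before the start of the canonical transcript. Those of other members that differed, such as Aldoc and Pcx, are not shown. The gene spans given above cover all annotated transcripts, so a promoter can lie within its gene, as that of Pklr does. In the promoters of Pck1 (chr2:172994591-172994840 on the plus strand) and Pdk4 (chr6:5496331-5496580 on the minus strand), capitals mark the CRE core, which reads CGTCA on this strand.
Pck1: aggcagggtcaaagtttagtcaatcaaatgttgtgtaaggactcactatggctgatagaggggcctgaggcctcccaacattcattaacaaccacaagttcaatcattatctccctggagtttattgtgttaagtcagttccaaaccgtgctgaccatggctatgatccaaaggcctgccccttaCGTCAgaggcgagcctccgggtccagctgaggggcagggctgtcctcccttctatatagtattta
Pdk4: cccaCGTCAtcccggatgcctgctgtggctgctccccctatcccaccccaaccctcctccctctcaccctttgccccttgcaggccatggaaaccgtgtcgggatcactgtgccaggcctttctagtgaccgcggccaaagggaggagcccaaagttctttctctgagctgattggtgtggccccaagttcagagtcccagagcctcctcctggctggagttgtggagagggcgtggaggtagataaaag
The match in Pck1 begins at position -65 and that in Pdk4 at position -246 from the start. In the promoter of G6pc (chr11:101258119-101258368 on the plus strand), which holds no CRE core, capitals mark the core GTTAAT of the site of HNF1, a hepatocyte transcription factor, found in 6.279% of promoters and in 2 members, G6pc and Pck1.
G6pc: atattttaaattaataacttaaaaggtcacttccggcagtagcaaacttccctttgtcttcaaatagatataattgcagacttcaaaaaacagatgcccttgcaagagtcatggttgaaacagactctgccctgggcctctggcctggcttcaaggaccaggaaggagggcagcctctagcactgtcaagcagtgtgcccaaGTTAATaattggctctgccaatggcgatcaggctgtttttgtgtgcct
In the promoter of Pklr (chr3:89043629-89043878 on the plus strand), capitals mark CACGGG and its reverse complement, the paired cores of the carbohydrate response element known from this gene. This core stood in 8.3% of promoters and in 4 members, Pfkl, Pfkfb3, Pgam1 and Pklr.
Pklr: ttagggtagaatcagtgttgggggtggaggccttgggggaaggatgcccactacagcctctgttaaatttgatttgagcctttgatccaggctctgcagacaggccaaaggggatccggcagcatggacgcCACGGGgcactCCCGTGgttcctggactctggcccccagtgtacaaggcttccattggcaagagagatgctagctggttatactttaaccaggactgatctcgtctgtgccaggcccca
Mlxipl, which encodes ChREBP, the factor of the carbohydrate response element, was at 11.7 and 8.31 CPM in DMSO, 44.5 and 38.2 in 3C and 27.5 and 21.8 in 5C. It was highest in 3C, with log2 fold changes of 2.02 ± 0.17 (adjusted p = 5.28e-05) in 3C, 1.32 ± 0.17 (adjusted p = 0.000463) in 5C and -0.70 ± 0.17 (adjusted p = 0.0268) between 5C and 3C. Of the other members with the carbohydrate response core, Pfkfb3 fell in both cocktails, Pfkl rose in both and Pgam1 passed in neither. A part of ChREBP in the level of Pklr was not tested.
Other searched cores were the hypoxia response core ACGTG (16 of 45 members, beside 17% of promoters) and the E-box CACGTG, which contains it (6 of 45, beside 6.261%). For both, the share of members was above that of all promoters, and the difference was not tested. The nuclear receptor core AGGTCA stood in 8 of 45 members, beside 13.12% of promoters, and the CCAAT box in 16 of 45, beside 36.5%. A match is a description of the letters and not evidence of binding.

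Related genes outside the 45 were counted in 8 further lists, and each share is to be read beside the 15.6% of all genes that rose and 13.1% that fell in 5C, and the 12.7 and 11.8% in 3C. The list of lactate and monocarboxylate transport held 4 genes, Slc16a1, Slc16a3, Slc16a7 and Bsg, and all 4 rose in each cocktail. Slc16a3, the lactate exporter MCT4, was at 19.2 and 21.6 CPM in DMSO, 25.7 and 31.2 in 3C and 52.8 and 62.1 in 5C and rose by 1.51 ± 0.13 (adjusted p = 4.12e-05) in 5C and by 0.45 ± 0.13 (adjusted p = 0.0377) in 3C, with a difference of 1.06 ± 0.13 (adjusted p = 0.00145) between the cocktails. Of 8 tested genes of fructose, polyol and glycerol steps, 5 (62.5%) rose and 2 (25%) fell in 5C, and 4 (50%) rose and 1 (12.5%) fell in 3C. Tkfc, which phosphorylates glyceraldehyde, was at 61.5 and 57.2 CPM in DMSO, 143 and 139 in 3C and 192 and 157 in 5C, with log2 fold changes of 1.58 ± 0.09 (adjusted p = 3.56e-06) in 5C and 1.22 ± 0.09 (adjusted p = 2.1e-05) in 3C. Gk, glycerol kinase, was at 17.8 and 14.5 CPM in DMSO, 37.1 and 36.4 in 3C and 49.4 and 55.8 in 5C, with log2 fold changes of 1.72 ± 0.12 (adjusted p = 8.71e-06) in 5C and 1.16 ± 0.12 (adjusted p = 0.000117) in 3C. Gpd1, the cytosolic glycerol phosphate dehydrogenase, was at 20.4 and 21.8 CPM in DMSO, 74.0 and 62.8 in 3C and 61.9 and 59.3 in 5C, with log2 fold changes of 1.54 ± 0.10 (adjusted p = 5.64e-06) in 5C and 1.66 ± 0.10 (adjusted p = 6.42e-06) in 3C. In every cocktail library these 3 genes lay above DMSO. Aqp9, the glycerol channel of hepatocytes, was at 13.9 and 15.2 CPM in DMSO, 21.1 and 17.3 in 3C and 28.6 and 31.5 in 5C, with log2 fold changes of 1.07 ± 0.13 (adjusted p = 0.000294) in 5C and 0.37 ± 0.13 (adjusted p = 0.0741) in 3C. Tkfc, Gk and Aqp9 were higher in 5C than in 3C, by 0.36 ± 0.09 (adjusted p = 0.0309), 0.57 ± 0.11 (adjusted p = 0.0121) and 0.70 ± 0.13 (adjusted p = 0.00834).

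Among 21 hormone receptors and regulators, 5 (23.8%) rose and 2 (9.52%) fell in 5C, and 6 (28.6%) rose and 1 (4.76%) fell in 3C, so the share that rose in 5C was not far above that of all genes and the share that fell was below it. Gcgr, the glucagon receptor, was at 1.33 and 0.334 CPM in DMSO, 5.13 and 4.16 in 3C and 15.6 and 14.9 in 5C. Its 5C libraries lay above 3C and 3C above DMSO, with rises of 4.22 ± 0.55 (adjusted p = 0.00172) in 5C and 2.45 ± 0.52 (adjusted p = 0.0169) in 3C, and the difference between the cocktails was 1.77 ± 0.48 (adjusted p = 0.0656). From the list, 5 genes known as cAMP targets were named after their values were seen, and other such genes may be left out. Of these 5, 2 were higher in 5C than in 3C, 1 was lower and 2 did not pass. Nr4a3 was low, at 0.789 and 0.834 CPM in DMSO, 0.468 and 0.293 in 3C and 1.35 and 1.07 in 5C, with changes against DMSO of 0.59 ± 0.45 (adjusted p = 0.391) in 5C and -1.12 ± 0.47 (adjusted p = 0.123) in 3C, and was higher in 5C than in 3C by 1.71 ± 0.47 (adjusted p = 0.0455). Nr4a1 was higher in 5C than in 3C by 0.58 ± 0.12 (adjusted p = 0.015), whereas Sik1 was lower, at -0.53 ± 0.07 (adjusted p = 0.00152), and Nr4a2, at 0.60 ± 0.27 (adjusted p = 0.216), and Crem, at 0.17 ± 0.14 (adjusted p = 0.538), did not pass. Creb1, the factor that binds the CRE, had a log2 fold change of -0.35 ± 0.10 (adjusted p = 0.0231) in 5C, and Crtc2, its coactivator, differed by -0.15 ± 0.09 (adjusted p = 0.248).

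Of 19 other glycogen genes, 7 (36.8%) rose and 4 (21.1%) fell in 5C, and 4 (21.1%) rose and 2 (10.5%) fell in 3C. In each cocktail, 10.5% were called higher, beside 7.3% of all genes in 5C and 5.83% in 3C. Those called were Ppp1r3c and Pygm. Ppp1r3c, a glycogen-targeting phosphatase subunit, was at 0.491 and 0.440 CPM in DMSO, 1.84 and 1.54 in 3C and 0.985 and 1.36 in 5C, with log2 fold changes of 1.35 ± 0.40 (adjusted p = 0.0331) in 5C and 1.82 ± 0.40 (adjusted p = 0.00945) in 3C. Pygm, the muscle phosphorylase, was at 1.46 and 1.05 CPM in DMSO, 3.56 and 3.31 in 3C and 3.46 and 3.87 in 5C, with log2 fold changes of 1.57 ± 0.28 (adjusted p = 0.00263) in 5C and 1.42 ± 0.28 (adjusted p = 0.00509) in 3C. Both were low in all groups, and the summed muscle markers were at 1.07 to 1.76 CPM. Of 8 tested other glycolytic enzymes, 5 (62.5%) rose and 0 fell in 5C, and 2 (25%) rose and 0 fell in 3C. Hkdc1, a hexokinase-like gene, was at 2.04 and 2.96 CPM in DMSO, 10.5 and 9.67 in 3C and 5.94 and 4.07 in 5C, with log2 fold changes of 1.02 ± 0.26 (adjusted p = 0.0169) in 5C and 1.98 ± 0.26 (adjusted p = 0.00057) in 3C. It was lower in 5C than in 3C, at -0.96 ± 0.25 (adjusted p = 0.0384). Ldhd, which oxidises D-lactate, was at 8.81 and 8.48 CPM in DMSO, 22.2 and 23.7 in 3C and 26.8 and 24.1 in 5C, with log2 fold changes of 1.57 ± 0.11 (adjusted p = 1.02e-05) in 5C and 1.38 ± 0.11 (adjusted p = 3.12e-05) in 3C.

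Of 8 other glucose transporters, 1 (12.5%) rose and 2 (25%) fell in 5C, and 0 rose and 3 (37.5%) fell in 3C. Slc2a3, the transporter GLUT3, was at 13.1 and 12.2 CPM in DMSO, 14.4 and 11.3 in 3C and 26.2 and 26.6 in 5C, with log2 fold changes of 1.08 ± 0.14 (adjusted p = 0.00035) in 5C and -0.01 ± 0.14 (adjusted p = 0.973) in 3C. It stood higher in 5C than in 3C, at 1.09 ± 0.14 (adjusted p = 0.00148). Slc2a6 was at 8.41 and 8.63 CPM in DMSO, 3.99 and 4.54 in 3C and 4.44 and 4.98 in 5C, with log2 fold changes of -0.83 ± 0.19 (adjusted p = 0.00977) in 5C and -1.03 ± 0.19 (adjusted p = 0.00386) in 3C. Slc2a10 was at 20.9 and 15.7 CPM in DMSO, 8.88 and 9.97 in 3C and 20.01 and 19.0 in 5C, with log2 fold changes of 0.11 ± 0.15 (adjusted p = 0.637) in 5C and -0.99 ± 0.15 (adjusted p = 0.00132) in 3C. Slc2a10 was lowest in 3C, and higher in 5C than in 3C by 1.10 ± 0.15 (adjusted p = 0.00229). Of 11 genes of the pyruvate dehydrogenase complex and pyruvate carriers, 3 (27.3%) rose and 0 fell in 5C, and 1 (9.09%) rose and 0 fell in 3C. Of 7 pentose phosphate genes, 1 (14.3%) rose and 2 (28.6%) fell in 5C, and 2 (28.6%) rose and 1 (14.3%) fell in 3C, shares that for rises in 5C and falls in 3C were near those of all genes.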

How the data were processed

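Bulk RNA-seq of 6 libraries, 2 each of DMSO, 3C and 5C, was analysed from the processed tables. The authors prepared libraries with a kit that does not mark strand, and the submitters' processing notes name Subread, featureCounts and DESeq2 with GRCm39, without versions. The deposited values are estimated counts per gene, not scaled, whose low values show an excess at 4 (4816 entries, beside 3121 of 3 and 2303 of 5). The units per fragment are unknown. The deposited FPKM were scaled to gene length and library size by the authors and served for shares of isoforms and for alternatives. Intervals and SE cover these libraries only.

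Counts were tested in edgeR 4.0.16 under R 4.3.3 (quasi-likelihood F test, robust, TMM, filterByExpr) over all 6 libraries, with Benjamini-Hochberg adjustment over 19135 genes. The SE is the value implied by the F statistic. Shares of isoforms come from FPKM, and log2 ratios of 12 pairs used log2(FPKM + 0.1). Such ratios carry no test, since permutations of 2 against 2 cannot go below p = 0.333. Limma 3.58.1 gave the values of Aldoa, on log2(FPKM + 1). Words of 50 bases of the longest transcript shared with other genes were counted in the GENCODE annotation, which matched 51722 of 52323 identifiers.

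The members and all gene lists were chosen with earlier results of these data known. Full values were given for members called in any comparison or belonging to an isoform pair, and, of the related lists, for genes called in any comparison (levels in each library, with changes against DMSO or between cocktails). Other genes were named after their values were seen. The core of the carbohydrate response element was added after the promoters had been read. Alternatives were RLE and upper quartile scaling, all genes with at least 1 count, a minimum of 10 counts in each library, DESeq2 1.42.0, the 4 libraries of the groups compared, a replicate block, limma on FPKM, and leaving out each library. Dividing the counts by 4 was added after seeing the data.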

Additional observations from a re-analysis of the deposited data

Results flagged for a closer look

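For the glycogen genes Gys1, Pygl and Gbe1 the test of 5C against 3C passed and the fitted changes against DMSO had opposite signs in the 2 cocktails, but 4 of these 6 changes did not pass. Gys1, the muscle glycogen synthase, was higher in 5C than in 3C by 0.52 ± 0.08 (adjusted p = 0.00461) on the log2 scale, with 0.29 ± 0.08 (adjusted p = 0.0291) in 5C and -0.23 ± 0.08 (adjusted p = 0.0892) in 3C against DMSO. Pygl, the liver phosphorylase, was lower in 5C than in 3C, at -0.35 ± 0.09 (adjusted p = 0.0327), with -0.10 ± 0.09 (adjusted p = 0.454) and 0.25 ± 0.09 (adjusted p = 0.0754) against DMSO. Gbe1, the branching enzyme, was lower in 5C too, at -0.42 ± 0.08 (adjusted p = 0.0109), with -0.08 ± 0.08 (adjusted p = 0.546) and 0.34 ± 0.08 (adjusted p = 0.0154) against DMSO. The 5C libraries of Pygl and Gbe1 overlapped those of DMSO. The difference between the cocktails did not pass without 3C replicate 1 for Gys1 (adjusted p = 0.0522), without 3C replicate 1, 3C replicate 2 or 5C replicate 1 for Pygl (0.139 to 0.206), and without 3C replicate 1 or 5C replicate 2 for Gbe1 (0.119 and 0.0686).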

How the results depend on the processing

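Of 82 differences of 44 members that passed, 47 passed under all 17 alternatives and 0 reversed. In 5C against DMSO, 4 members fell instead of 8 with limma on log2(FPKM + 1) without a filter, and 4 to 6 without a library. In 3C against DMSO, 4 to 7 fell and 0 to 1 were called lower without a library. In 5C against 3C, the unfiltered limma fit left 2 higher and 1 lower, and leaving out a library gave 4 to 11 higher, 1 to 6 lower and 0 to 2 called higher. The call of Pck1 in 5C against 3C was lost with all genes of at least 1 count (0 called), and 2 were called in the 4 libraries of these groups. The replicate block gave 0 called and a median of 0.55 for the liver isoforms. Replicate numbers did not pair the libraries (r of replicate differences between groups, across genes, -0.031 to 0.016).

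The median of the liver isoforms in 5C against DMSO was 1.60 with at least 10 counts in every library, where Gys2 drops out, 1.47 with log2(FPKM + 1), filtered or not, 1.67 with log2(FPKM + 0.1), and 1.54 to 1.94 without a library. In 3C against DMSO it was 2.34 with upper quartile scaling, 1.73 with the count filter, 1.01 and 2.26 on FPKM, and 2.22 to 2.32 without a library. In 5C against 3C the corresponding values were 0.51, 0.31, 0.43, 0.45 and 0.36 to 0.53. For the isoforms of other cells, FPKM gave -0.21 and -0.22 in 5C against DMSO and 0.0434 and 0.0452 in 5C against 3C, where leaving out a library gave 0.0280 to 0.1251. The pseudocount shrinks the changes of low genes. The cause of the other shifts was not tested.

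With 2 libraries a group and 3 residual degrees of freedom, small changes can be missed. A library left alone in its group was assumed to vary like the others. Low levels, such as Gys2 in DMSO, rest on few counts of unknown units per fragment, and shared sequence leaves the level of 20 members uncertain.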
